A study of Mus musculus with 6 samples.

Results

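The cardiac myosin heavy and light chains were followed as 8 genes, *Myh6*, *Myh7*, *Myh7b*, *Myl1*, *Myl2*, *Myl3*, *Myl4* and *Myl7*, in bulk RNA-Seq of the mouse cardiac outflow tract (OFT) at E13.5. They were found by symbol among the 28777 genes of the count table, and all 8 were among the 28157 genes tested. The 6 libraries held 3 labelled *Notch1*+/-*; Nos3*-/- (called mutant here) and 3 labelled wildtype, and each library was made from 3 OFTs pooled after genotyping. Both alleles of the mutant are global knockouts in the whole embryo, the background is C57/BL6J, and the wildtype embryos were littermates with neither allele. The dissected tissue reached down past the conal cushions, and markers of myocardium, mesenchyme, endothelium, smooth muscle, epicardium and blood were all detected in the libraries. Depth was between 34729103 and 44387490 counts per library, and the fewest counts of any chain in any library were 181, for *Myl1*.

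Libraries are named wildtype replicate 1, wildtype libraries B and C, and mutant replicates 1, 2 and 3. The letters are used because B is number 2 in the sample titles and 3 in the descriptions, and C is number 3 in the titles and 2 in the descriptions. Levels are CPM, the counts of a gene scaled to a common library total after TMM normalization, and a gene is termed called where edgeR's quasi-likelihood test gave it an adjusted p of 0.05 or less. The p-values measure the spread between pooled libraries, not between single embryos.

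The targeted genes were examined first, beside the labels. *Nos3* was at 31.8, 47.2 and 48.1 CPM in wildtype replicate 1 and libraries B and C, and at 22.1, 22.0 and 20.4 CPM in mutant replicates 1, 2 and 3. The groups did not overlap, in the direction of the label, every library labelled mutant still held at least 769 *Nos3* counts, and the gene was not called (log2 fold change −0.98 ± 0.15 SE, edgeR adjusted p = 0.128). *Notch1* was at 74.3, 88.2 and 83.6 CPM in the wildtype libraries and at 155, 161 and 139 CPM in those labelled mutant. It was called as higher under the mutant label (0.89 ± 0.10, edgeR adjusted p = 0.0313), while that label names 1 lost allele. Counts per gene do not tell a targeted allele from an intact one, so they cannot decide the genotype of a library. The pools were made after genotyping, and all directions are given by label. Neither fold change turned direction when single libraries were left out, but the calls changed. Without wildtype replicate 1 *Nos3* was called (−1.15, edgeR adjusted p = 0.00176), as was *Notch1* (0.82, edgeR adjusted p = 0.00626). *Notch1* was not called without wildtype library B (0.94, edgeR adjusted p = 0.125), wildtype library C (0.90, edgeR adjusted p = 0.132) or mutant replicates 1, 2 and 3 (0.87, 0.84 and 0.94, edgeR adjusted p = 0.339, 0.233 and 0.0917), nor with GC and length offsets (0.66) or with the mean of the pan-cardiomyocyte genes as a covariate (0.83). Over all alternative settings the adjusted p of *Nos3* ran from 9.14e-06 to 0.576 and that of *Notch1* from 6.25e-11 to 0.339, and neither gene turned direction.

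Cardiac myosin is a hexamer in which a pair of heavy chains, which split ATP and pull on actin, each carry an essential and a regulatory light chain along the lever arm. The heart makes the heavy chains α (*Myh6*) and β (*Myh7*), and its light chains come in forms named for the chamber where they prevail later in life, the atrial *Myl4* and *Myl7* and the ventricular *Myl2* and *Myl3*. In the embryo these forms overlap in space, the myocardium of the outflow tract shares them with the chambers, and no chain of the family is known to belong to the outflow tract alone.

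Of the 8 chains, 7 had a lower mean in the libraries labelled mutant and 1, *Myh7b*, a higher one. Their median log2 fold change was −0.40, beside 0.01 for all genes tested. Together the chains took 18172, 21147 and 28228 CPM in wildtype replicate 1 and libraries B and C, and 15003, 12366 and 17682 CPM in mutant replicates 1, 2 and 3. These sums did not overlap, with 22516 ± 5166 CPM (SD, n = 3) under the wildtype label and 15017 ± 2658 CPM (SD, n = 3) under the mutant label. Fewer cardiomyocytes in the dissected tissue and less myosin RNA per cardiomyocyte cannot be told apart in bulk libraries.

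None of the chains was called by edgeR (0 of 8), where 6 of all 28157 genes (0.0213%) were. At an unadjusted p under 0.05 the counts were 6 of 8 chains, all but *Myh6* and *Myl1*, and 4522 genes (16.1%). In DESeq2's Wald test 4 of the 8 chains and 749 of the 17781 genes given an adjusted p (4.21%) were called, and in limma-voom 0 of the 8 chains and 5 of 28157 genes (0.0178%). The 4 were *Myh7* (DESeq2 adjusted p = 0.0365), *Myh7b* (0.0322), *Myl3* (0.0250) and *Myl4* (0.0460). In edgeR a replicate block by the numbers of the titles called 4 chains and 1577 genes. A block by the numbers of the descriptions called 0 chains and 83 genes. Over all alternative settings the adjusted p ran from 0.000283 to 1 for *Myh7*, from 0.0322 to 0.642 for *Myh7b*, from 0.00676 to 1 for *Myl3*, from 0.0038 to 1 for *Myl4*, from 0.00043 to 1 for *Myl2*, from 0.00269 to 0.934 for *Myh6*, from 0.0718 to 1 for *Myl7* and from 0.146 to 0.982 for *Myl1*. Of the 8 chains, 4 had groups without overlap, beside 19.6% of all genes. In 1 of these, *Myh7b*, the mutant label was higher (10.7% of all genes), and in 3, *Myh7*, *Myl2* and *Myl7*, it was lower (8.94% of all genes).

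The calls of edgeR depended on wildtype replicate 1. Without wildtype replicate 1, edgeR called 2593 of 27450 genes (9.45%) and 5 of the 8 chains. *Myl2* was then at a log2 fold change of −1.16 (adjusted p = 0.0221), *Myl3* at −0.82 (0.0176), *Myl4* at −0.69 (0.0193), *Myh7* at −0.57 (0.0395) and *Myh7b* at 0.33 (0.0382), each from edgeR. Without any other single library 0 of the 8 chains and between 1 and 3 genes were called. The median over the chains was −0.62 without mutant replicate 3, the library of that label with the highest level of 6 of the chains, and −0.30 without wildtype library C. Scaled by library size alone, the median of all genes was 0.11 and that of the chains −0.29, and no chain turned direction under that scaling or under DESeq2's size factors.

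The α heavy chain *Myh6*, the fast form that prevails in the atria and, after birth, in the whole mouse heart, was at 2278, 2132 and 3209 CPM in wildtype replicate 1 and libraries B and C. In mutant replicates 1, 2 and 3 it was at 1871, 1435 and 2882 CPM. The groups overlapped, since mutant replicate 3 lay above wildtype replicate 1 and library B. It was not called (log2 −0.30 ± 0.24 SE, edgeR adjusted p = 0.560, exact permutation p = 0.4). The fold change was −0.62 without mutant replicate 3, −0.096 without mutant replicate 2 and −0.096 without wildtype library C.

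The β heavy chain *Myh7*, the slow form that prevails in the embryonic ventricles, had the most CPM of the 8 chains. Its levels were 7213, 7051 and 10008 CPM under the wildtype label and 6065, 5064 and 6060.2 CPM under the mutant label. All 3 mutant libraries lay below all 3 wildtype libraries, and wildtype library C stood above the rest. The log2 fold change was −0.50 ± 0.16 SE (edgeR adjusted p = 0.213, exact permutation p = 0.1, which is the smallest that 3 libraries against 3 can give). Without wildtype library C it was −0.32.

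*Myh7b* encodes a slow-type heavy chain that the heart transcribes at low levels, in part as RNA that makes no full protein. It was the single chain that was higher under the mutant label, at 53.4, 53.2 and 58.2 CPM in the wildtype libraries and 71.4, 68.2 and 70.3 CPM in those labelled mutant. Both groups were tight and apart from each other, at 54.9 ± 2.81 and 70.0 ± 1.61 CPM (SD, n = 3 each). Its log2 fold change of 0.35 ± 0.09 SE was not called (edgeR adjusted p = 0.188, exact permutation p = 0.1). With GC and length offsets it was at 0.13 and again not called.

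*Myl2*, the regulatory light chain of the ventricles and a marker of ventricular muscle, had the most negative fold change of the 8. It was at 4302 CPM in wildtype replicate 1, 6050.3 CPM in wildtype library B and 8342 CPM in wildtype library C. The libraries labelled mutant held 3006, 2373 and 4287 CPM. The groups did not overlap, but wildtype replicate 1 and mutant replicate 3 were next to each other. The means were 6232 ± 2026 and 3222 ± 975 CPM (SD, n = 3 each), with a log2 fold change of −0.95 ± 0.25 SE (edgeR adjusted p = 0.194, exact permutation p = 0.1).

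*Myl7*, the regulatory light chain of the atria, which the early heart tube also expresses throughout, varied little. It was at 957, 1155 and 997 CPM in wildtype replicate 1 and libraries B and C, and at 862, 813 and 935 CPM in mutant replicates 1, 2 and 3. Every library labelled mutant was below every wildtype library, with mutant replicate 3 near wildtype replicate 1. Its log2 fold change was −0.25 ± 0.11 SE (edgeR adjusted p = 0.309, exact permutation p = 0.1). The fold change was −0.17 without wildtype library B and −0.13 with GC and length offsets. Unlike *Myh7*, *Myl2*, *Myl3* and *Myl4*, *Myl7* had its highest level in wildtype library B and not in C.

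*Myl3*, the essential light chain of the ventricles and of slow skeletal muscle, was at 1549.59, 2228 and 2706 CPM under the wildtype label. Under the mutant label it was at 1449.6, 1182 and 1549.64 CPM. The groups met at a single point, since wildtype replicate 1 and mutant replicate 3 differed by less than 0.1 CPM. The log2 fold change was −0.63 ± 0.19 SE (edgeR adjusted p = 0.20, exact permutation p = 0.2).

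*Myl4*, the essential light chain of the atria and of embryonic muscle, followed the same libraries. It was at 1809, 2468 and 2890.0 CPM in wildtype replicate 1 and libraries B and C, and at 1672, 1426 and 1879 CPM in mutant replicates 1, 2 and 3. The groups overlapped only through mutant replicate 3, which lay above wildtype replicate 1. The log2 fold change was −0.53 ± 0.17 SE (edgeR adjusted p = 0.223, exact permutation p = 0.2).

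*Myl1*, the essential light chain of fast skeletal muscle, was near the bottom of the range. Its levels were 8.53, 9.25 and 17.2 CPM in the wildtype libraries and 6.40, 4.83 and 19.2 CPM in those labelled mutant. Wildtype library C and mutant replicate 3 stood above the other libraries, and the groups overlapped. The log2 fold change was −0.20 ± 0.45 SE (edgeR adjusted p = 0.864, exact permutation p = 0.6). Its sign rested on single libraries, with 0.19 without wildtype library C, 0.05 without mutant replicate 1 and 0.14 without mutant replicate 2. The fold change was −1.05 without mutant replicate 3.

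**Figure D1:**
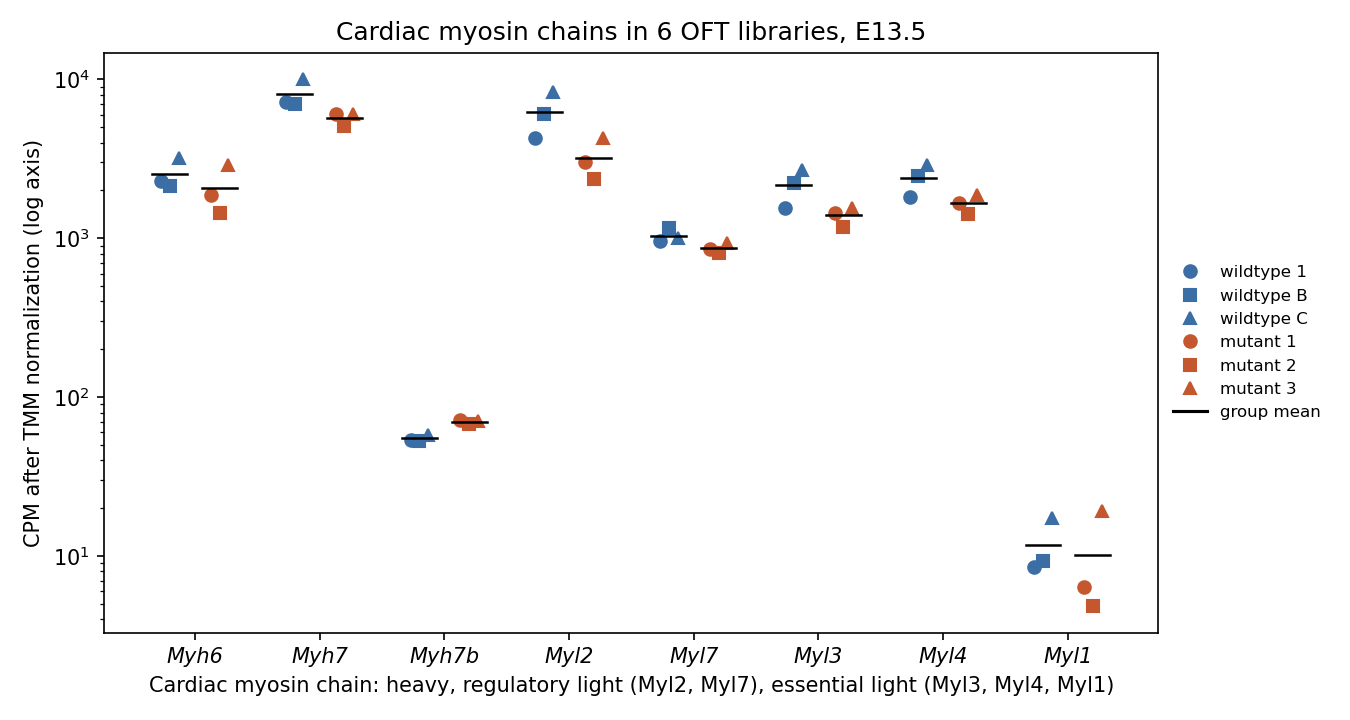
CPM after TMM normalization (log axis) of the 8 chains in each of the 6 libraries, wildtype in blue and mutant label in orange, with a bar at each group mean (n = 3). Mutant replicate 2 is the lowest of the 6 libraries for every chain but *Myh7b*, the single chain whose mutant libraries all lie above the wildtype ones.

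Per length, in CPM per kilobase (kb) of merged exons, the order over the 6 libraries was *Myl2* (mean 2424), *Myl7* (1616), *Myl3* (870), *Myh7* (802), *Myl4* (437), *Myh6* (342), *Myh7b* (9.41) and *Myl1* (5.26). The 6 chains of the working myocardium were thus set apart from *Myh7b* and *Myl1*, and *Myh6* was 36.3-fold above *Myh7b* with ranges that did not overlap. The regulatory light chains led in every library. *Myl2* was above *Myl7* in 5 of 6 libraries, the exception being mutant replicate 2 with 1217 CPM per kb of *Myl2* and 1378 CPM per kb of *Myl7*. *Myl3* and *Myh7* did not differ beyond their spread, and *Myl3* was ahead in 4 of 6 libraries. *Myl7* was above *Myl3* and *Myh7* above *Myl4* in 6 of 6 libraries, and the ranges over libraries overlapped only for the latter pair. *Myl4* was above *Myh6* in 5 of 6 libraries, with 405 and 428 CPM per kb in mutant replicate 3, where the order was turned. *Myh7b* was above *Myl1* in 6 of 6 libraries, although their ranges overlapped. With the longest transcript as the length the means kept this order, but the levels depended on that choice (*Myl2* 5317, *Myl3* 1580.1, *Myh7* 1109 and *Myl4* 618). *Myh7b* (10.13) and *Myl1* (10.07) were then level, with *Myh7b* ahead in 4 of 6 libraries, and *Myl7* was above *Myl3* in 4 of 6. At that length *Myl2* was above *Myl7*, *Myl3* above *Myh7* and *Myl4* above *Myh6* in 6 of 6 libraries. The place of *Myl4* depended on its long annotation under both lengths. It has 4637 bases of merged exons and a longest transcript of 3273, beside 2044 and 1125 for *Myl3*. In CPM, before division by length, *Myl4* was above *Myl3* in every library. Which transcripts were made was not tested.

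Atrial and ventricular forms were then compared within each library, which does not depend on library size. The log2 ratio of *Myh6* to *Myh7* was −1.66, −1.73 and −1.64 in wildtype replicate 1 and libraries B and C, and −1.70, −1.82 and −1.07 in mutant replicates 1, 2 and 3. In 5 libraries the ratio lay within a narrow band, and mutant replicate 3 stood apart with relatively more of the α chain. The difference of 0.15 between the labels (exact permutation p = 0.9, 0.9 after adjustment over 4 ratios) became −0.08 without that library. Between the fold changes fitted with the mean of 16 pan-cardiomyocyte genes as a covariate it was 0.54, an alternative chosen after seeing the data, as are the fitted differences of the other pairs.

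For the regulatory light chains, the log2 ratio of *Myl7* to *Myl2* was −2.17, −2.39 and −3.06 in the wildtype libraries and −1.80, −1.54 and −2.20 in those labelled mutant. The groups overlapped only because mutant replicate 3 lay just below wildtype replicate 1. The mean difference was 0.69 toward the atrial form (exact permutation p = 0.2, adjusted p = 0.267 over the 4 ratios), and it lay between 0.43 and 0.88 when each library was left out in turn. With the covariate it turned to −0.08. For the essential light chains, the log2 ratio of *Myl4* to *Myl3* was 0.22, 0.15 and 0.09 under the wildtype label and 0.21, 0.27 and 0.28 under the mutant label. These ratios spanned the smallest range of the 3 pairs, and the difference was 0.10 (exact permutation p = 0.2, adjusted p = 0.267). Fitted with GC and length offsets it turned to −0.07.

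Over all 3 pairs, the mean log2 CPM of *Myh6*, *Myl4* and *Myl7* minus that of *Myh7*, *Myl2* and *Myl3* was −1.20, −1.32 and −1.54 in the wildtype libraries and −1.10, −1.03 and −0.997 in those labelled mutant. The groups did not overlap, and the atrial forms had the larger relative share under the mutant label by 0.31 (exact permutation p = 0.1, adjusted p = 0.267). The difference was between 0.22 and 0.39 when each library was left out in turn, and 0.17 with the covariate. Most of it came from *Myl7* to *Myl2* (0.69), beside 0.15 for *Myh6* to *Myh7* and 0.10 for *Myl4* to *Myl3*. No ratio passed the threshold, which 3 libraries against 3 cannot reach.

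**Figure D2:**
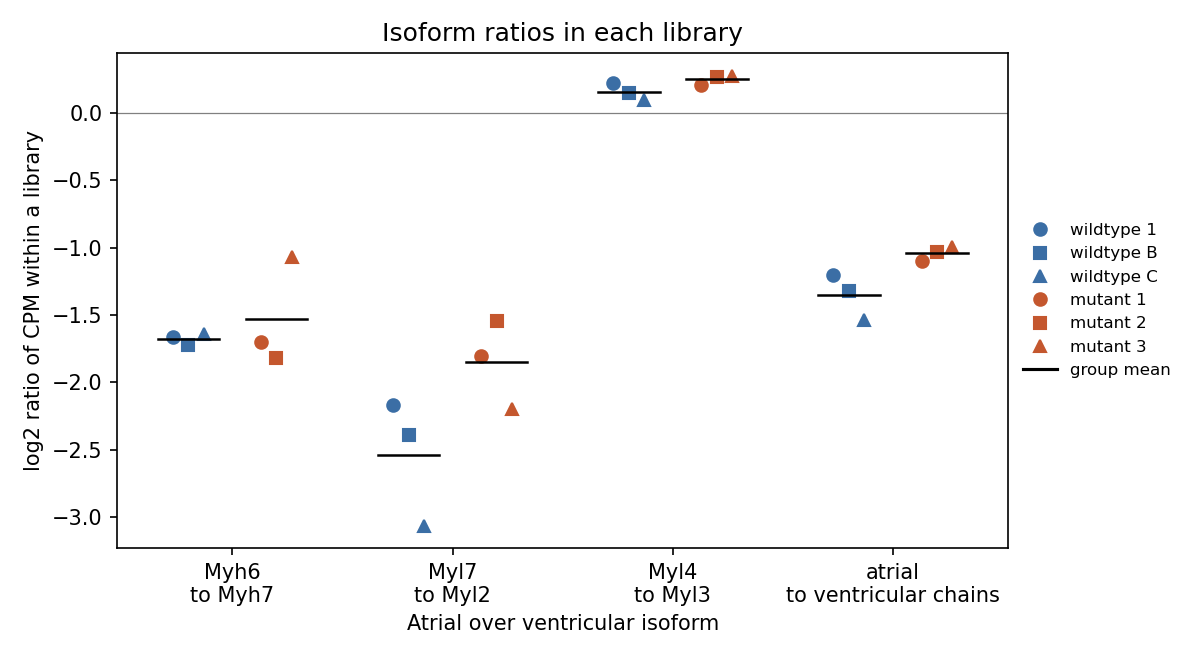
Log2 ratio of CPM of the atrial over the ventricular form within each of the 6 libraries, for the heavy chains, the regulatory and the essential light chains and the mean of all 3 pairs, with a bar at each group mean (n = 3). *Myl7* to *Myl2* spans the widest range, from −3.06 to −1.54, and mutant replicate 3 stands apart for *Myh6* to *Myh7*.

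Other genes of the cardiomyocyte had values like those of the chains. Of 16 pan-cardiomyocyte genes, 16 had a lower mean under the mutant label, 5 had groups that did not overlap, 0 were called by edgeR and 12 had an unadjusted p under 0.05. DESeq2 called 6 of the 16, limma-voom 0, and edgeR 9 without wildtype replicate 1. Their median log2 fold change was −0.46, next to −0.40 for the chains and 0.01 for all genes. *Actc1*, the cardiac actin and the most abundant of them, was at 6160, 6264 and 9047 CPM in the wildtype libraries and 4949, 3690 and 6355 CPM in those labelled mutant. *Tnnt2*, the cardiac troponin T, had a log2 fold change of −0.48 ± 0.15 SE (edgeR adjusted p = 0.214). *Pln*, which restrains the calcium pump of the sarcoplasmic reticulum, was at −0.60 ± 0.12 SE (edgeR adjusted p = 0.153). Summed, the list took 24056, 26215 and 33253 CPM in wildtype replicate 1 and libraries B and C, and 19826, 16992 and 24000.2 CPM in mutant replicates 1, 2 and 3, with no overlap. The part of cardiomyocyte content in the levels of the chains was not tested by this list, which is made of the same cells' genes.

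Set against the mean log2 CPM of that list in the same library, most chains differed little between the labels. The difference of the labels in this relative level was −0.05 for *Myh7*, −0.07 for *Myl4*, 0.10 for *Myh6*, −0.17 for *Myl3*, 0.19 for *Myl7* and 0.07 for *Myl1*, with overlapping groups and exact permutation p between 0.4 and 1.0. *Myl2* was at 2.41, 2.80 and 2.94 relative to the list in the wildtype libraries and 2.18, 2.03 and 2.43 in those labelled mutant. They overlapped only at wildtype replicate 1 and mutant replicate 3, and the difference was −0.50 (exact permutation p = 0.2, 0.8 after adjustment over the 8 comparisons). *Myh7b* was at −3.91, −4.01 and −4.21 relative to the list under the wildtype label and at −3.21, −3.08 and −3.49 under the mutant label. With no overlap, the difference was 0.79 (exact permutation p = 0.1, adjusted p = 0.8). Those of *Myh6*, *Myh7*, *Myl1* and *Myl4* changed sign with single libraries. Without mutant replicate 3 *Myh6* was at −0.05, *Myh7* at 0.03 and *Myl1* at −0.38, and *Myl1* was at −0.03 without wildtype replicate 1 and −0.02 without wildtype library B, where *Myl4* was at 0.0047. *Myl3* lay between −0.30 and −0.088 and *Myl7* between 0.038, without wildtype library C, and 0.31. With the list's mean as a covariate in edgeR the chains had a median of −0.056, and *Myl2* (−0.09) was level with *Myh7* (−0.10), *Myl3* (−0.08), *Myl4* (−0.03) and *Myl7* (−0.17). *Myh6* and *Myh7b* were both at 0.44 and *Myl1* at 1.19 in that fit, which called 0 of the 8 chains and 4 of all genes (0.0142%). At an unadjusted p under 0.05 it had 3 chains, *Myh6*, *Myh7b* and *Myl1*, and 1463 genes (5.20%). The same covariate is meant where medians of lists are given with it. It was itself lower in every library labelled mutant, at 9.38, 9.18 and 9.63 in mutant replicates 1, 2 and 3. In wildtype replicate 1 and libraries B and C it was at 9.66, 9.76 and 10.09. With 6 libraries such a fit cannot fully separate the label from the covariate, which limits every value given with it.

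Chamber markers outside the myosin family were looked up for comparison. Of 8 ventricular genes, 7 were lower and 1 higher under the mutant label (median −0.40), 4 had groups that did not overlap, and edgeR called 0, with 4 at an unadjusted p under 0.05, while DESeq2 called 3. The median ran from −0.59 without mutant replicate 3 to −0.27 without wildtype library C and was −0.085 with the covariate, and edgeR called 5 without wildtype replicate 1. *Lbh*, the most abundant, was at 758, 828 and 905 CPM in the wildtype libraries and 653, 611 and 687 CPM in those labelled mutant. *Hey2*, a repressor of atrial genes in the ventricle, had a log2 fold change of −0.41 ± 0.11 SE (edgeR adjusted p = 0.194), and *Irx1* one of −1.58 ± 0.39 SE (edgeR adjusted p = 0.181) at 7.15 CPM or less. Of 8 atrial genes, 6 were higher and 2 lower (median 0.25), 0 were called by edgeR and 1 by DESeq2, and 3 had an unadjusted p under 0.05. That median was −0.054 without mutant replicate 3, 0.38 without mutant replicate 1, 0.58 with the covariate and 0.15 with GC and length offsets. It was 0.14 without wildtype replicate 1, where edgeR called 3. *Kcna5*, an atrial potassium channel, was at 9.29, 8.58 and 8.84 CPM under the wildtype label and 13.4, 14.4 and 13.7 CPM under the mutant label. The atrial enzyme gene *Pam*, by far the most abundant of the list, went the other way, at −0.45 ± 0.14 SE (edgeR adjusted p = 0.221). *Tbx5*, a factor of the atria and the left ventricle, was highest in the same libraries as *Myl1*, at 29.7 CPM in wildtype library C and 39.9 CPM in mutant replicate 3, and between 13.6 and 18.1 CPM in the other 4.

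For the outflow tract itself, genes other than myosins were looked up. Of 7 genes listed for its myocardium, 6 were higher and 1 lower under the mutant label (median 0.19). Both edgeR and DESeq2 called 0, with 0 at an unadjusted p under 0.05. The direction turned with the covariate, to a median of −0.59. The median was 0.085 without wildtype library C, 0.10 without mutant replicate 2, 0.30 without mutant replicate 3 and 0.36 without wildtype replicate 1, where edgeR called 1. Their sum was 301, 265 and 183 CPM in wildtype replicate 1 and libraries B and C, and 312, 319 and 231 CPM in mutant replicates 1, 2 and 3. It was lowest in wildtype library C and highest in mutant replicate 2, as was the sum of the mesenchymal genes given below. Which cells made these RNAs was not measured. Wildtype library C and mutant replicate 3 had the least of these genes. They were also the libraries of their label with the most *Myh6*, *Myl2*, *Myl3*, *Myl4* and *Myl1*. *Sema3c*, a guidance signal of the outflow tract, ran from 47.5 CPM in wildtype library C to 88.7 CPM in mutant replicate 2, and *Bmp4* from 23.4 to 74.4 CPM in the same libraries. Where the cut was placed in each dissection was not measured, and its part in the levels of the chains was not tested.

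Markers of cells other than cardiomyocytes also differed between libraries. All 8 mesenchymal genes were higher under the mutant label (median 0.59), and edgeR called 0 and DESeq2 1, with 6 at an unadjusted p under 0.05. Leaving out wildtype replicate 1 gave 8 calls and a median of 0.97, and leaving out wildtype library C a median of 0.37. With the covariate the median was −0.058. Their sum was 7767, 5577 and 3873 CPM in the wildtype libraries and 8784, 9694 and 7265 CPM in those labelled mutant, with *Col3a1* the most abundant. The order of the libraries was nearly the reverse of that of the summed chains, wildtype library C having the least and mutant replicate 2 the most mesenchymal RNA. All 8 blood genes were lower under the mutant label (median −0.56), with 0 called by edgeR, 2 by DESeq2 and 6 at an unadjusted p under 0.05, and *Hba-a2* was the most abundant. Leaving out wildtype replicate 1 gave 7 calls and a median of −0.82, and leaving out wildtype library B a median of −0.35. It was −0.29 with the covariate. Their sum was 5391 CPM in wildtype replicate 1, 11878 CPM in wildtype library B and 10206 CPM in wildtype library C, and between 6152 and 6307 CPM in the libraries labelled mutant. The part of mesenchyme and blood in the levels of the chains was not tested.

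In the lists of the remaining cell types edgeR called 0 genes and DESeq2 1, in the smooth muscle list. Of 8 endothelial genes, 2 were higher and 6 lower (median −0.06; 2 at an unadjusted p under 0.05; *Cdh5* most abundant). Of 6 epicardial genes, 2 were higher and 4 lower (median −0.10; 0 at an unadjusted p under 0.05; *Upk3b* most abundant). Of 6 smooth muscle genes, 3 were higher and 3 lower (median 0.04; 2 at an unadjusted p under 0.05; *Acta2* most abundant). All 5 listed genes of neural crest and glia were higher (median 0.37; 2 at an unadjusted p under 0.05), and *Erbb3* was the most abundant at 24.1 CPM on average. Leaving out wildtype replicate 1 put their median at 0.61, wildtype library B at 0.60 and mutant replicate 2 at 0.23, and the covariate put it at −0.0047. The medians of the other 3 lists were near 0 and changed sign with single libraries, to 0.0088 (endothelial) and 0.15 (epicardial) without wildtype library B and −0.0063 (smooth muscle) without wildtype library C. The smooth muscle median was also −0.024 without mutant replicate 2. Without wildtype replicate 1 the endothelial median was −0.20 and the epicardial −0.24. The epicardial median was also −0.22 without mutant replicate 2 and −0.18 without wildtype library C. With the covariate the endothelial, epicardial and smooth muscle medians were 0.21, −0.37 and −0.12. Leaving out wildtype replicate 1, edgeR called 1 endothelial, 1 smooth muscle, 1 neural crest and 0 epicardial genes.

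Skeletal muscle was checked because *Myl1* and *Myl3* are also made there. Of 9 listed skeletal muscle genes, 1 was higher and 8 lower (median −0.72), with 0 called by edgeR, 1 by DESeq2 and 2 at an unadjusted p under 0.05. The most abundant was *Acta1*, which the embryonic heart also expresses. The median was −0.40 without wildtype library C, −0.38 over the 7 genes that passed the low count filter of edgeR and −0.50 with the covariate. Its defining regulator *Myod1* was under 1 CPM in every library and at 0 in mutant replicate 1, and *Myog* was at 1.95 CPM or less. Skeletal-type sarcomeric myosins and partners were likewise low. Of 9 genes, 5 were higher and 4 lower (median 0.14, or −0.36 over the 6 that reached 1 CPM in a library), with 0 called by edgeR and DESeq2 and 3 at an unadjusted p under 0.05. Over the 8 genes still tested without mutant replicate 2 the median was −0.20, and over the 8 without mutant replicate 3 it was 0.045. Over all 9 it was 0.045 without wildtype library C, −0.0022 with GC and length offsets, 0.41 with the covariate and −0.09 without wildtype replicate 1. Leaving out the latter, edgeR called 2 of these genes and 2 of the skeletal muscle list. *Mybpc1* was the most abundant at 37.0 CPM on average, *Myh2*, *Myh4* and *Myh13* stayed under 1 CPM, and the embryonic heavy chain *Myh3* was at 6.53 CPM in wildtype library B and at 1.42 CPM or less elsewhere.

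Myosins of non-muscle and smooth muscle cells had no common direction. Of 9 genes, 5 were higher and 4 lower under the mutant label (median 0.16), with 0 called by edgeR (3 without wildtype replicate 1), 1 by DESeq2 and 3 at an unadjusted p under 0.05. The median was 0.043 without wildtype library C, 0.11 without wildtype library B, 0.044 with GC and length offsets and −0.068 with the covariate. Their summed level lay between 2946 and 3168 CPM in all 6 libraries. The most abundant, the non-muscle heavy chain *Myh10*, was at 1137, 826 and 777 CPM in the wildtype libraries and 1156, 1219 and 989 CPM in those labelled mutant. The smooth muscle heavy chain *Myh11* was at 2.20, 1.69 and 1.94 CPM and at 3.70, 5.15 and 3.16 CPM, with no overlap (log2 1.04 ± 0.24 SE, edgeR adjusted p = 0.181).

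Genes of myosin kinases, of the myosin phosphatase and of thick filament assembly went both ways. Of 13 genes, 5 were higher and 8 lower (median −0.26), with 0 called by edgeR (2 without wildtype replicate 1), 1 by DESeq2 and 7 at an unadjusted p under 0.05. With the covariate the median was 0.047, and over the 12 genes that passed the low count filter of edgeR it was −0.16. *Mybpc3*, the cardiac myosin-binding protein C of the thick filament, was at 1691, 1848 and 2423 CPM under the wildtype label and 1571, 1389 and 1713 CPM under the mutant label, overlapping at mutant replicate 3. *Unc45b*, a chaperone that folds the myosin head, had a log2 fold change of −0.38 ± 0.13 SE (edgeR adjusted p = 0.239), and *Ppp1r12b*, a myosin phosphatase subunit of heart muscle, one of −0.40 ± 0.11 SE (edgeR adjusted p = 0.195). Factors known to act on myosin genes showed no common direction. Of 11, 5 were higher and 6 lower (median −0.0021), with 0 called by edgeR (1 without wildtype replicate 1), 0 by DESeq2 and 1 at an unadjusted p under 0.05. With GC and length offsets the median was −0.15. The gene at that p, *Myocd*, the partner of SRF in heart and smooth muscle, was at 72.3, 67.6 and 85.8 CPM in the wildtype libraries and 64.6, 56.3 and 63.5 CPM in those labelled mutant. *Tbx20*, the most abundant, was at 773 CPM in wildtype replicate 1, 485 and 416 CPM in wildtype libraries B and C, and between 688 and 761 CPM in the libraries labelled mutant.

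To show which genes shared the pattern of the chains over the 6 libraries, log2 CPM was centred on its mean for each gene and compared with the mean centred profile of the chains. That profile was −0.06, 0.15 and 0.51 in wildtype replicate 1 and libraries B and C, and −0.24, −0.49 and 0.14 in mutant replicates 1, 2 and 3. Among 16647 genes of at least 1 CPM on average, the smallest root mean square differences were those of *Slc16a1*, a lactate carrier, and *Got2*, a mitochondrial aminotransferase, both 0.0397. *Epas1* (0.0420), *Ndufa12* (0.0427), *Gm11633* (0.0430) and *Usp2* (0.0455) followed. Of the chains themselves *Myl4* lay nearest to their mean profile (0.115), and *Myh7b* and *Myl1* lay farthest (both 0.429).

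The 8 genes lie on 6 chromosomes of mm10, and only the α and β heavy chain genes are neighbours. *Myh7* (chr14:54970684-54994626) lies 3756 bases upstream of *Myh6* (chr14:54941921-54966927), both on the minus strand. *Myh7b* is at chr2:155611212-155634307 (plus), *Myl1* at chr1:66924295-66945404 (minus), *Myl2* at chr5:122100951-122113472 (plus) and *Myl3* at chr9:110741861-110769798 (plus). *Myl4* (chr11:104550663-104595753, plus) and *Myl7* (chr11:5896637-5898782, minus) share a chromosome but not a locus.

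*Myh6* and *Myh7* are near copies over part of their coding sequence, so their counts are uncertain to the extent that reads could be given to either gene. Their longest transcripts share 1373 words of 50 bases, the read length, which are 22.6% of the words of *Myh6* and 22.2% of those of *Myh7*. The reads were paired and these shares leave out the mate, so they do not give the share of uncertain counts. There were 26 identical stretches of at least 50 bases. The longest, 245 coding bases split over 2 exons in each gene (*Myh6* chr14:54948327-54948725 and *Myh7* chr14:54974947-54975347, minus strand, mm10), is shown because a read that lies within it fits both genes. It encodes part of the rod.
shared by Myh6 and Myh7: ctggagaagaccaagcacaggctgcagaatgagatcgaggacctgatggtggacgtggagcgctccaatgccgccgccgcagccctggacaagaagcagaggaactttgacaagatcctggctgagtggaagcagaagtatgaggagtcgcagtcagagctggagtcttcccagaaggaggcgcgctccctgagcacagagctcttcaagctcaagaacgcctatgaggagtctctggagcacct

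*Myl1* shared 242 such words (23.4%) with a pseudogene, *Mylf-ps*, and its low counts are uncertain for that reason. *Myh7b*, *Myl2*, *Myl3*, *Myl4* and *Myl7* shared 0 words with any other gene. Genes on the opposite strand overlap exons of several chains, and the use of strand in the counting was not stated, so reads there cannot be told apart. *Gm31251* shares 523 exon bases with *Myh7* and *Gm49130* 114 with *Myh6*, and neither is in the count table. Of genes in the table, *Mhrt* shares 484 with *Myh7*, *Gm29015* shares 142 with *Myh7*, *Pth1r* shares 95 with *Myl3*, *Ccdc63* shares 60 with *Myl2*, *Trpc4ap* shares 37 with *Myh7b* and *Gm22000* shares 3 with *Myl4*.

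**Figure D3:**
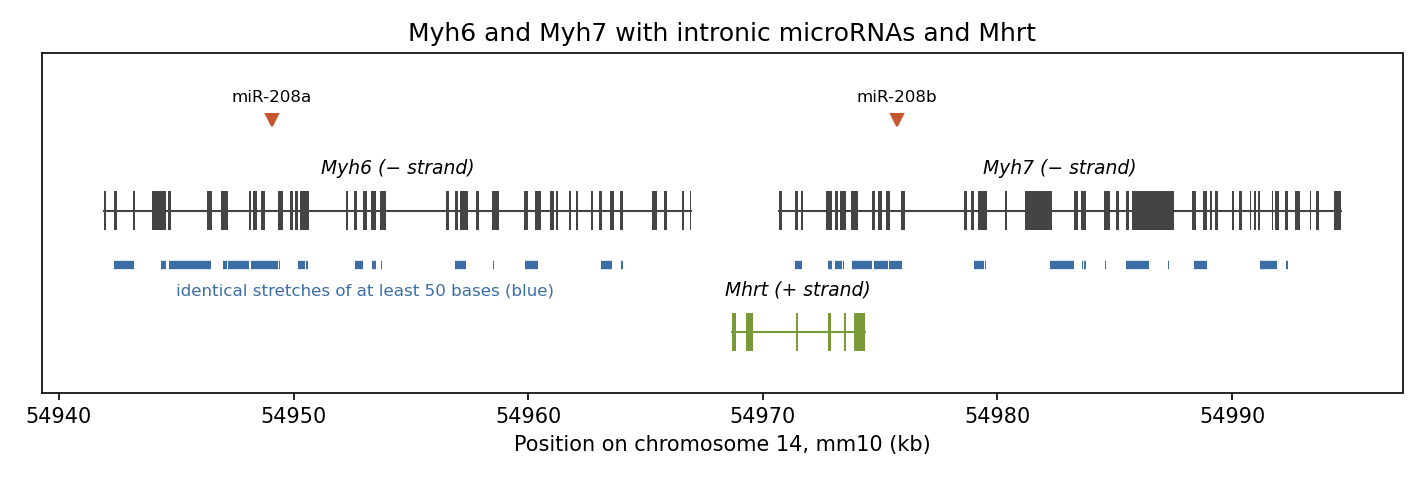
Map of *Myh6* and *Myh7* on chromosome 14 of mm10 (position in kb), with exons as dark boxes, *Mhrt* in green, the intronic microRNAs as triangles and, in blue, the spans of the 26 stretches of at least 50 bases that both transcripts share. The exons of *Mhrt* lie over the end of *Myh7* on the opposite strand.

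*Mhrt*, a heart RNA antisense to *Myh7*, was at 0.922, 1.08 and 0.678 CPM in the wildtype libraries and 1.45, 1.68 and 2.04 CPM in those labelled mutant. Its groups did not overlap either, in the opposite order to *Myh7* (log2 0.94 ± 0.29 SE, edgeR adjusted p = 0.213). Of the 3 listed intronic and antisense RNAs of the heavy chain genes 2 were higher and 1 lower (median 0.94), with 0 called by edgeR and DESeq2 and 2 at an unadjusted p under 0.05. *Mir208a* and *Mir208b* stayed under 1 CPM in all 6 libraries, and a library of long RNA does not measure mature microRNAs.

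All 3 heavy chain genes hold a microRNA in an intron, which ties the chains together beyond their protein sequence. The mature sequences are given from RefSeq (GRCm38.p6) with the seed, bases 2 to 8, in capitals. miR-208a-3p (chr14:54949072-54949093, minus, in *Myh6*) and miR-208b-3p (chr14:54975710-54975731, minus, in *Myh7*) have the same seed. miR-499-5p (chr2:155622893-155622913, plus, in *Myh7b*) shares the leading 6 of the 7 seed bases. Mature levels were not measured here.
miR-208a-3p: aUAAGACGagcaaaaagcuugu
miR-208b-3p: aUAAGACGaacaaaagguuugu
miR-499-5p: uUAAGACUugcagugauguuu

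Short motifs of muscle promoters were searched on both strands in the 250 bases before RefSeq gene starts. For 4 chains, *Myh7*, *Myl2*, *Myl4* and *Myl7*, windows were free of the gene's own exons, 5 in all. Those of *Myh7*, *Myl4* and *Myl7* end at the gene starts given here. *Myl2* had 2 windows, which end 8.23 and 7.76 kb before its start given here. CATTCC, the core bound by TEAD factors, was in the windows of *Myh7* and *Myl7* (2 of 5 windows; 12.6% of all 32851 windows), and CANNTG, the E-box, in all but that of *Myl4* (4 of 5; 66.2%). A CArG box, bound by SRF, was found for *Myl7* (1 of 5; 1.47%), and also in the window of *Myl3*, which holds exon bases. The shares of all windows were taken without leaving out windows that hold exon bases. TATAAA (1 of 5; 12.4%) was in the nearer window of *Myl2*, AGATAA, which GATA factors bind (1 of 5; 9.99%), in the farther one, and the MEF2 motif (2.92%) in 0 of 5. The windows of *Myh7* (chr14:54994627-54994876, minus strand) and *Myl7* (chr11:5898783-5899032, minus strand), from RefSeq GRCm38.p6, are shown because both genes were lower in every library labelled mutant and both windows hold CATTCC. *Myl2* was also lower in every library labelled mutant, and neither of its windows holds CATTCC. Windows that reach into the gene's own exons were left out of these counts. Among them, those of *Myh6*, *Myl1* and *Myl3*, whose groups overlapped, hold CATTCC. That of *Myh7b* and a further window of *Myh7* do not. Capitals mark motifs on either strand: the TEAD core, which reads GGAATG for *Myh7*, and an E-box in each, and the CArG box for *Myl7*. None of the marked motifs overlap, and a match describes the letters, not a bound site.
Myh7 upstream: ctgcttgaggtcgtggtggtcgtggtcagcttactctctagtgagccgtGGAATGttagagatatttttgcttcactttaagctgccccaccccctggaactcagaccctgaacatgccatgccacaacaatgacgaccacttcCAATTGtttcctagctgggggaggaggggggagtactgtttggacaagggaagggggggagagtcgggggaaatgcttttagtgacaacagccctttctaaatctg
Myl7 upstream: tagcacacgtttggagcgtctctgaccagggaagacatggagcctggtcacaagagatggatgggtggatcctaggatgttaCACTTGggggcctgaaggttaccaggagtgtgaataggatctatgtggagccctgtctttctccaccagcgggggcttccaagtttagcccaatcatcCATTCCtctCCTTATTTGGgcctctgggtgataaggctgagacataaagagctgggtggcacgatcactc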

How the data were processed

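The authors aligned paired-end reads of stranded, ribosome-depleted total RNA to mm10 with TopHat 2.1.0 and counted reads on exons with GenomicAlignments. The deposited values are whole-number counts per gene, not normalized. The strand setting, the annotation release and the treatment of reads that fit several genes were not given in the sources used here.

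Genes with more than 5 counts over all libraries were tested in R 4.3.3 with edgeR 4.0.16 (quasi-likelihood test, TMM, Benjamini-Hochberg over all genes tested) between the 3 libraries of each label. DESeq2 1.42.0, limma 3.58.1 (voom), other scalings and filters, covariates and each library left out in turn were the alternatives. Single values were compared by two-sided exact permutation tests (scipy 1.17.1) of log2 of CPM plus 0.5, or of log2 ratios. Positions and lengths came from GENCODE for mm10, which held 28723 of 28777 identifiers. The code was tested on simulated data.

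Named genes were the 8 chains, the targeted genes, the intronic and antisense RNAs, from each other list the 3 of highest CPM and the 2 of smallest p, of which the text gives those that show the list, and the 6 genes nearest to the mean profile of the chains. *Myod1*, *Myh2* and *Myh13* fell outside this rule and were chosen after their values were seen, and genes that overlap or share sequence with a chain are named without a level, except *Mhrt*. Members and lists were chosen with earlier results of these data known.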

Additional observations from a re-analysis of the deposited data

How the results depend on the processing

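The number of genes called depended on the test. Against 6 in edgeR it was 749 with DESeq2. In edgeR it was 2 at a threshold of 0.01 and between 1 and 2593 when each library was left out in turn. The number of chains called was 4 with DESeq2 and between 0 and 5 without single libraries. DESeq2 called *Myh7* (−0.50), *Myh7b* (0.35), *Myl3* (−0.63) and *Myl4* (−0.53) at the fold changes of edgeR. Fitted with the pan-cardiomyocyte mean as covariate, the chains had a median of −0.056, *Myh6* was at 0.44 and *Myl1* at 1.19. That mean was itself lower in every library labelled mutant. With GC and length offsets *Myh7b* was at 0.13, *Myl7* at −0.13, *Myl1* at −0.07 and *Myh6* at −0.47. The causes were not tested.

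With single libraries left out, the median of the chains lay between −0.62 and −0.30, *Myh6* between −0.62 and −0.096, *Myl7* between −0.31 and −0.17, *Myh7* between −0.59 and −0.32, *Myh7b* between 0.33 and 0.39, *Myl1* between −1.05 and 0.19, *Myl2* between −1.21 and −0.68, *Myl3* between −0.82 and −0.44, and *Myl4* between −0.69 and −0.37. The difference between labels in the log2 ratio of *Myh6* to *Myh7* lay between −0.082 and 0.29. In alternatives chosen after seeing the data, that difference for *Myh6* to *Myh7* was 0.54, for *Myl7* to *Myl2* −0.077 and for all 3 pairs 0.17 with the covariate, and for *Myl4* to *Myl3* −0.072 with GC and length offsets. Relative to the pan-cardiomyocyte list, *Myh6* lay between −0.052 and 0.22, *Myh7* between −0.098 and 0.030, *Myl1* between −0.38 and 0.34, and *Myl4* between −0.17 and 0.0047. Per length of the longest transcript the levels were 1109 for *Myh7*, 10.1 for *Myh7b*, 10.1 for *Myl1*, 5317 for *Myl2*, 1580.1 for *Myl3* and 618 for *Myl4*. Of 136 fold changes of single chains under alternatives, 113 kept their direction and their side of the threshold, 18 were called and 5 changed sign.

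The labels give both groups the replicate numbers 1, 2 and 3, but same-numbered libraries did not deviate together throughout. The correlations of their deviations over 16655 genes were 0.0960, 0.159 and 0.420 by the titles and 0.0960, −0.121 and −0.441 by the descriptions, and wildtype replicate 1 correlated best with mutant replicate 2 (0.277). A replicate block by the titles called 1577 genes and 4 chains, *Myh7* (−0.48), *Myl2* (−0.94), *Myl3* (−0.61) and *Myl4* (−0.51). A replicate block by the descriptions called 83 genes and 0 chains. A replicate block by the titles with GC and length offsets called 2217 genes and 5 chains, *Myh6* (−0.52), *Myh7* (−0.67), *Myl2* (−0.78), *Myl3* (−0.49) and *Myl4* (−0.56), with *Myh7b* at 0.13. The replicate block by the titles called 12 and, with the offsets, 15 of the 16 pan-cardiomyocyte genes, and 8 of 8 mesenchymal genes in both. The block by the descriptions called 0 of the 16 pan-cardiomyocyte and 1 of the 8 mesenchymal genes. With the replicate block by the titles and the offsets the difference for *Myl4* to *Myl3* turned to −0.070.

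With 3 pooled libraries a label, the exact tests cannot fall below 0.1. The chains had at least 181 counts in every library, and the part of counting error in the spread was not tested. The dissection and the make-up of each pool were not measured.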
